A study of Mus musculus with 2 samples.

Results

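Piwil4, Spocd1, Tex15, Morc1, Tdrd9 and Mael, 6 genes of the nuclear arm of the piRNA pathway, were followed across all 10 groups of a count table of sorted mouse foetal germ cells. The members were the rows of the table whose Ensembl identifiers map to these symbols. They were 6 of 42422 genes in the table, and all 6 were among the 15252 genes that passed the filter on low counts. Gonads with the mesonephros attached were taken from E12.5 embryos of crosses between Swiss mice and an Oct4(Pou5f1)-eGFP line on a 129svJT2 background, labelled wild type, and were sampled at once (0 h) or after organ culture. XX gonads were cultured in the vehicle DMSO for 24 or 72 h, and XY gonads for 24 or 72 h in DMSO, in 500 nM of the FGF receptor inhibitor BGJ398 (FGFRi) or in 500 nM of the MEK1/2 inhibitor PD0325901 (MEKi). Each library came from GFP-positive cells sorted from several gonads combined, so that a cell had to express the Oct4 reporter to be measured, and the inhibitors were given to the whole explant, somatic cells included. There were 4 libraries in each group and 40 in all.

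In foetal male germ cells, short piRNAs guide the nuclear Argonaute protein PIWIL4 (MIWI2) to transposons that are being transcribed, and the DNA there is methylated de novo before birth. Female germ cells enter meiosis at this stage and gain their DNA methylation only in the growing oocyte after birth. SPOCD1 and TEX15 are nuclear proteins that associate with PIWIL4 and are needed for this methylation, and MORC1 is a nuclear ATPase needed for transposon repression in the male germline. TDRD9, a helicase with a Tudor domain, and MAEL, a protein with an HMG box, are found with PIWIL4 in cytoplasmic granules and in the nucleus, and male mice that lack either release transposons. The comparisons ask when transcripts of each gene were present in XY and XX germ cells, and whether its level in XY germ cells depended on FGF receptor or MEK1/2 signalling.

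All 6 are protein-coding genes. On GRCm39, Piwil4 (ENSMUSG00000036912) lies on the minus strand of chromosome 9 at 14607526 to 14652036, Spocd1 (ENSMUSG00000028784) on the plus strand of chromosome 4 at 129822561 to 129850908, and Tex15 (ENSMUSG00000009628) on the plus strand of chromosome 8 at 34006766 to 34075610. Morc1 (ENSMUSG00000022652) spans 48251600 to 48452291 on the plus strand of chromosome 16, Tdrd9 (ENSMUSG00000054003) 111937965 to 112035290 on the plus strand of chromosome 12, and Mael (ENSMUSG00000040629) 166028770 to 166066331 on the minus strand of chromosome 1. Their canonical transcripts have 20, 14, 4, 27, 36 and 12 exons in the same order, and counts were assigned over exons. Reads start from the poly(A) tail and were not divided by transcript length, so each gene's level was compared between groups and not with the level of another gene.

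Promoter windows were printed for the members that had an entry in the RefSeq table (GRCm38.p6), because the genes moved together at 72 h in XY germ cells. A window runs from 250 bases before a start site to 50 bases after it, and 3 of the 6 members had at least 1. Capitals mark CACGTG, an E-box that reads the same on both strands, and GCGGGA or its reverse complement TCCCGC, a core sequence of E2F sites. Both sequences are known from promoters of germline genes, and they were chosen with these windows in view. The windows were those of Piwil4 at chr9:14740623-14740922 (minus strand), Tdrd9 at chr12:111971309-111971608 (plus strand) and Mael at chr1:166238695-166238994 (minus strand).
Piwil4: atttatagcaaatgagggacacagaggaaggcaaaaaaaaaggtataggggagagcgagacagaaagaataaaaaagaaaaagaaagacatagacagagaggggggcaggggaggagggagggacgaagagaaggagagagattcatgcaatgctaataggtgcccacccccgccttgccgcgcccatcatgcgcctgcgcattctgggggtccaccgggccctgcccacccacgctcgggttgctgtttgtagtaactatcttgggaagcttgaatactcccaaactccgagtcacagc
Tdrd9: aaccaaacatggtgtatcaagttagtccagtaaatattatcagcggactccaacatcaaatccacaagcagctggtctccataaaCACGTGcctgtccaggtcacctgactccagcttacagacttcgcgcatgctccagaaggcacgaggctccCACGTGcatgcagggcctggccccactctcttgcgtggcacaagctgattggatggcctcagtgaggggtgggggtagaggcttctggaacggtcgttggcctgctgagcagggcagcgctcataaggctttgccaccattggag
Mael: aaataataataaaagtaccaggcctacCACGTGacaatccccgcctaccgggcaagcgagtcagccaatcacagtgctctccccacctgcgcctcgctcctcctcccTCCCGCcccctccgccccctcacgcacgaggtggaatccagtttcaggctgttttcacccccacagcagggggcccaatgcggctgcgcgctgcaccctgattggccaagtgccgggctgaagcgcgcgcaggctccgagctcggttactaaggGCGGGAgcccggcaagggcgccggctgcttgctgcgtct

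The Tdrd9 window held CACGTG at 2 places, starting 165 and 95 bases before the start site, and no GCGGGA. The Mael window held CACGTG once, 223 bases before the start, and the E2F core at 2 places, 1 on each side of the start. Neither motif was in the Piwil4 window, nor in a further Piwil4 window at chr9:14718338-14718637. Of 32841 windows of the same length, 7.15% held at least 1 CACGTG, 0.594% held at least 2, 20% held at least 1 GCGGGA on either strand, 4.96% held at least 2 and 1.99% held both motifs. CpG dinucleotides numbered 11 in the printed Piwil4 window, 0 in the further one, 10 in Tdrd9 and 24 in Mael, where the median window held 7, and a match is a description of these letters only. Spocd1, Tex15 and Morc1 had no window in the table.

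The libraries held between 1178953 and 5199153 counts (median 2135128.5). Levels are given as counts-per-million (CPM), the count of a gene scaled to the TMM-normalised size of its library. The germ cell markers Ddx4, Dazl, Pou5f1 and Dppa3 were present in every group, with a summed level between 1677 and 5339 CPM per library, whereas 12 markers of gonadal somatic cells summed to between 17 and 130.1 CPM and 8 blood cell markers to between 13.6 and 421 CPM. The libraries were made in 2 pools. Pool 1 held both 0 h groups, both 24 h DMSO groups and XY 24 h MEKi, and pool 2 held XY 24 h FGFRi and all 72 h groups, so most comparisons between times were also comparisons between pools. In addition, 16 libraries of pool 1 carried the same sample index as a library of pool 2, and those with at least 5 genes to estimate it from (3 of XY 0 h and 4 of XX 24 h DMSO) held 2.98% to 4.75% of their partner's counts of genes near absent from the rest of pool 1. The median, 4.06%, stood in for the others. This matters for the members because they were abundant in the 72 h partners. Values with a share of the partner's counts taken out are given beside many of the pool 1 results whose calls or directions changed with it. Others are given in the section on processing. XY 24 h DMSO replicate 3, XY 24 h FGFRi replicate 4 and XX 24 h DMSO replicate 6 stood apart from the other libraries of their groups for several members.

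After 72 h in DMSO, transcripts of all 6 genes were abundant in XY germ cells, and 4 of them, Piwil4, Spocd1, Morc1 and Tdrd9, were higher than in XX germ cells of the same age (22.8% of all genes tested were called higher), by 11.95-fold for Tdrd9 to 171-fold for Piwil4. MEKi lowered 5 of the 6 in XY germ cells, where 5.11% of all genes were lower, with Spocd1 at 9.55-fold and Mael at 2.11-fold as the extremes. FGFRi changed 0 of the 6, and 0.00656% of all genes in either direction. Between 0 and 72 h, across the pools, all 6 rose in XY germ cells (20.2% of all genes higher). In XX germ cells Tex15, Mael, Tdrd9 and Spocd1 rose as well (18.8% of all genes) and Morc1 fell (18.4%). All 72 h libraries were in the same pool and none of the comparisons among them used a pool 1 library. In sorted bulk samples, fewer cells that express a gene and less RNA per cell cannot be told apart.

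**Figure D1:**
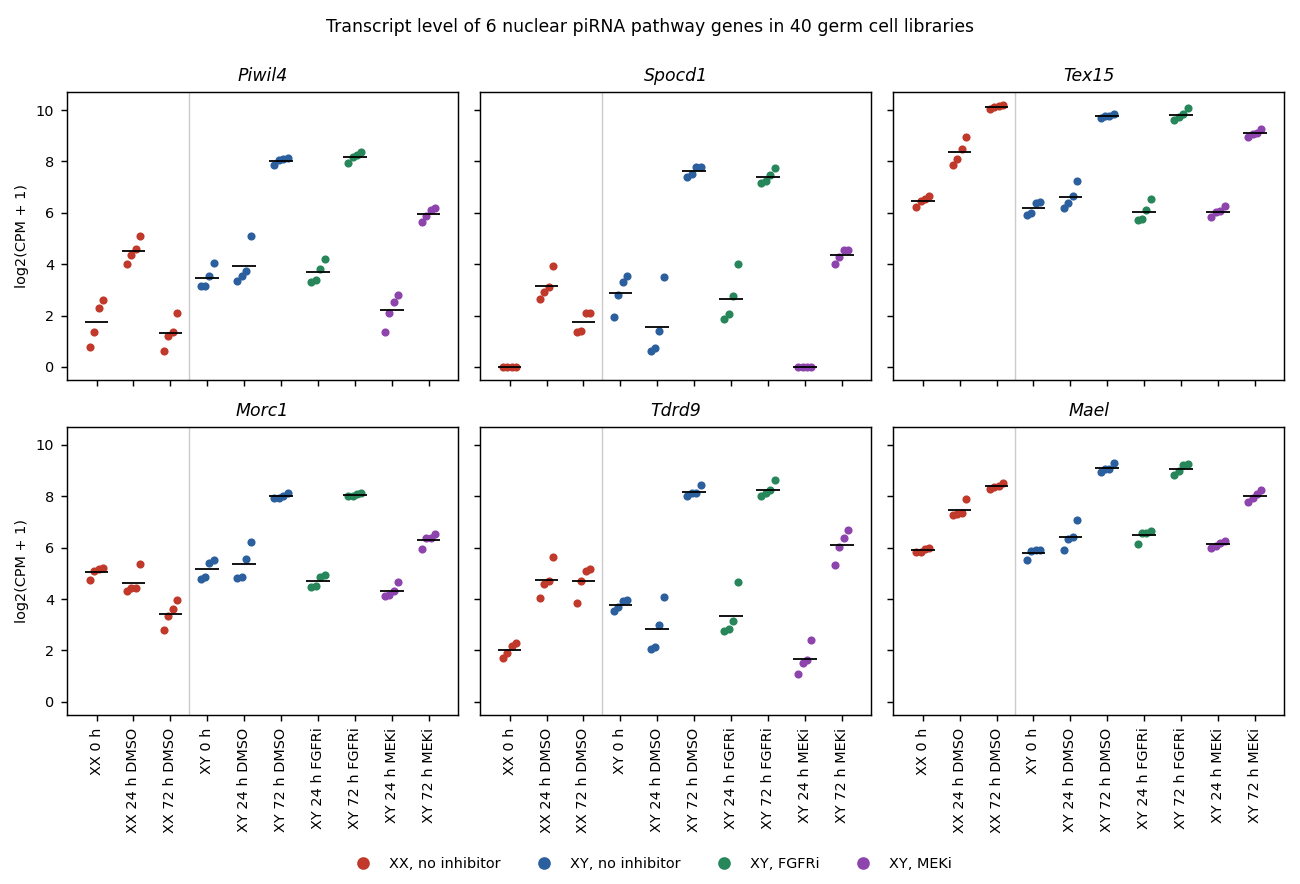
Transcript level of the 6 genes, as log2(CPM + 1), in each of the 40 libraries, by group. Each point is a library, ordered by value within its group, and each bar is the mean of the 4 log2 values. In XY germ cells the 72 h DMSO and FGFRi libraries are high for every gene and the MEKi libraries lie below them, while XX 72 h libraries are high only for Tex15 and Mael.

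Piwil4, the nuclear Argonaute, was at 230.9, 264.6, 273.9 and 276.3 CPM in the XY 72 h DMSO libraries and at 242.5, 287.8, 307.3 and 325 CPM in FGFRi. The MEKi libraries held 48.6, 57.8, 68.6 and 72.55 CPM, and the XX 72 h DMSO libraries 0.535, 1.29, 1.55 and 3.345 CPM, from 1 to 5 counts each. No XY DMSO or FGFRi library overlapped a MEKi library, and no XY library overlapped an XX one. The share of all genes separated in this way between XY and XX at 72 h was not counted. Separations of the sexes at 72 h, here and for the other members, are therefore descriptions only. Piwil4 was 171-fold higher in XY than XX (log2 fold change 7.42, SE 0.571, FDR 2.5e-15), and MEKi left 23.7% of the DMSO mean (log2 fold change -2.03, SE 0.123, FDR 1.34e-13). FDR here is the Benjamini-Hochberg adjusted p of limma's treat test against a 1.5-fold change over 15252 genes, and genes with an FDR under 0.05 were called.

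Spocd1, whose product joins PIWIL4 to the methylation machinery, was at 167.9, 181.3, 218.3 and 219 CPM in XY 72 h DMSO and at 143.3, 150.4, 174.6 and 211.8 CPM in FGFRi. In MEKi it was at 14.9, 18.3, 22.6 and 22.7 CPM, all well below every library of the other XY 72 h groups. XX 72 h libraries held 1.55 to 3.345 CPM, from 3 to 5 counts. The MEKi mean was 9.98% of the DMSO mean (log2 fold change -3.26, SE 0.158, FDR 2.06e-19), and XY DMSO was 78.7-fold above XX (log2 fold change 6.3, SE 0.495, FDR 8.73e-15).

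Tex15, whose product is the other partner of PIWIL4, was at 828.1, 872.1, 880.4 and 910.8 CPM in XY 72 h DMSO and slightly higher, at 1053, 1111, 1144 and 1163 CPM, in XX, a difference that was not called (log2 fold change -0.34, 95% interval -0.57 to -0.11, FDR 1) although the groups did not overlap. The MEKi libraries, at 498.1, 537.5, 543.5 and 609.3 CPM, lay below all DMSO and FGFRi libraries. Their mean was 62.7% of DMSO, a log2 fold change of -0.68 (95% interval -0.9 to -0.46) that did not pass the test against 1.5-fold (FDR 0.766). It passed a test against no change (FDR 1.15e-06 with eBayes).

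Morc1, the nuclear ATPase, was at 241.7, 242.8, 258.3 and 276.7 CPM in XY 72 h DMSO, at 60.55, 82.5, 83.1 and 90.8 CPM in MEKi, and at 5.89, 9.06, 11.4 and 14.45 CPM in XX. The 3 groups were fully separated. Morc1 was 26.4-fold higher in XY than XX (log2 fold change 4.72, SE 0.302, FDR 1.82e-17), and MEKi left 31.1% of the DMSO mean (log2 fold change -1.63, SE 0.122, FDR 2.18e-09).

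Tdrd9, the Tudor domain helicase, was at 255.5, 276.3, 281.1 and 348.2 CPM in XY 72 h DMSO and at 13.4, 25.3, 32.8 and 34.9 CPM in XX, an 11.95-fold difference (log2 fold change 3.58, SE 0.253, FDR 3.86e-15). Its MEKi libraries, at 38.7, 64.3, 81.1 and 101.9 CPM, were all below DMSO. The MEKi mean was 24.6% of DMSO (log2 fold change -2, SE 0.154, FDR 2.92e-10).

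Mael, the HMG box protein, was at 498.3, 531.3, 533.5 and 626.4 CPM in XY 72 h DMSO, at 219.2, 246.7, 269.2 and 304.4 CPM in MEKi and at 313.1, 328.2, 339.7 and 362.4 CPM in XX. Again the groups did not overlap. MEKi left 47.5% of the DMSO mean (log2 fold change -1.07, SE 0.105, FDR 0.0004), whereas the XY to XX difference was not called (log2 fold change 0.69, 95% interval 0.47 to 0.92, FDR 0.322).

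Over the 6 members the median log2 fold change of MEKi against DMSO at 72 h was -1.82 (all genes 0.0057), and in all 6 members the 4 MEKi libraries lay below the 4 DMSO libraries, as they did for 19.4% of all genes. Set directly against FGFRi at 72 h, MEKi gave the same 5 calls, with log2 fold changes from -2.99 for Spocd1 to -1.01 for Mael and -0.69 for Tex15, which was not called (6.98% of all genes were lower). FGFRi against DMSO at 72 h gave 0 calls among the members with limma, edgeR and DESeq2 and 0 at an unadjusted p under 0.05. The log2 fold changes under FGFRi ran from -0.27 for Spocd1 to 0.11 for Piwil4, and the 95% intervals of the 6 genes together spanned -0.5 to 0.33. Both inhibitor comparisons used the same DMSO libraries. The germ cell markers summed to between 2056 and 3353 CPM in MEKi and between 2152 and 2555 CPM in DMSO libraries, and the somatic markers to between 60.3 and 100.6 CPM and between 53.9 and 84.6 CPM, against 36.6 to 55.2 CPM in FGFRi. The blood cell markers summed to between 17.6 and 27.8 CPM in MEKi and between 27.3 and 59.05 CPM in DMSO, and the part of these markers in the differences was not tested.

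**Figure D2:**
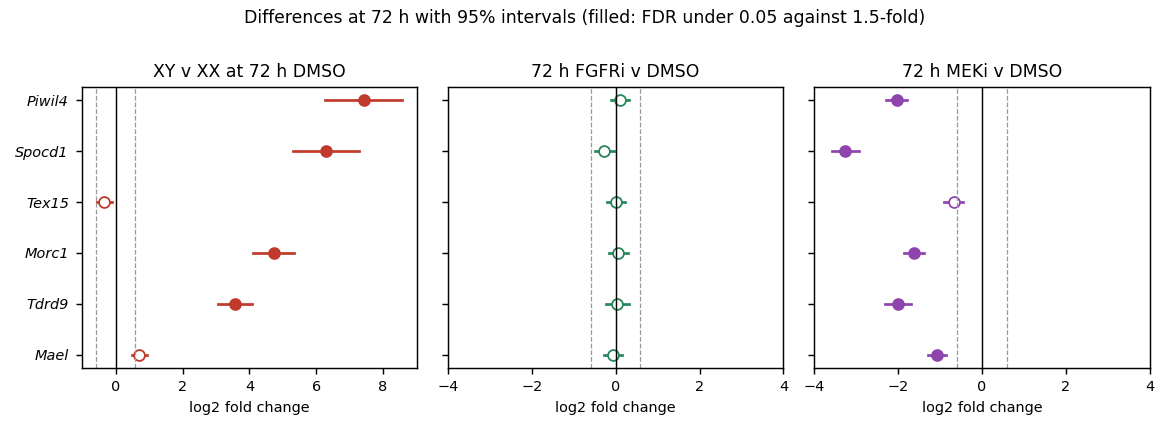
Log2 fold changes of the 6 genes at 72 h, for XY against XX in DMSO, FGFRi against DMSO and MEKi against DMSO, with 95% intervals and dashed lines at a 1.5-fold change. Filled points passed an FDR of 0.05: 4 genes for XY against XX, none for FGFRi and 5 for MEKi, and the XY against XX axis reaches further than the other axes.

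XY germ cells in MEKi were not at the level of XX germ cells. At 72 h, Piwil4 was 41.9-fold (FDR 4.445e-10), Morc1 8.53-fold (FDR 7.38e-10), Spocd1 8.24-fold (FDR 4.98e-05) and Tdrd9 2.99-fold (FDR 0.00104) higher in XY MEKi than in XX DMSO germ cells, against 17.2% of all genes called higher. DESeq2 did not call Tdrd9 there (FDR 0.184). Tex15 was 2.04-fold lower in XY MEKi than XX (FDR 0.000873, 12.8% of all genes lower), and Mael was not called (log2 fold change -0.38, FDR 1), although its XY MEKi libraries lay below the XX ones. The germ cell markers differed between the sexes at 72 h in DMSO. Pou5f1, the gene of the sorting reporter, was at 8.34 CPM in XX and 61.9 CPM in XY. Dppa3 was at 96.2 and 871.2 CPM and Ddx4 at 380.4 and 530.3 CPM, whereas Dazl was higher in XX, at 1414 against 896.9 CPM. The summed somatic markers were higher in XX 72 h libraries, at 89.8 to 130.1 CPM, than in XY DMSO ones. Amh, a Sertoli cell gene, was the 1 somatic marker at 0 in XX 72 h libraries, but it was near 0 in XY 72 h DMSO too, at 0.166 CPM on average. The part of the germ cell and somatic markers in the sex difference was not tested.

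Between E12.5 and 72 h of culture, all 6 genes rose in XY germ cells. Against XY 0 h the folds in DMSO were 37.5 for Spocd1, 27.9 for Piwil4, 23.2 for Tdrd9, 12.8 for Tex15, 10.4 for Mael and 7.97 for Morc1, with the largest FDR at 8.77e-18 (20.2% of all genes higher). Against XY 24 h DMSO they were 120.8, 21.2, 48.6, 9.27, 6.58 and 6.45 in the same order (16% of all genes higher). Of the XY 0 h counts, 3% of the index partner amounted to 75.5% for Spocd1, 62.1% for Piwil4, 55.6% for Tdrd9, 29.9% for Tex15, 24.1% for Mael and 18.3% for Morc1. With that 3%, or the estimated share, taken out, all 6 were still called and the log2 fold changes against 0 h were larger, going from 5.23 to 7.88 or 8.84 for Spocd1, from 4.8 to 6.17 or 8.24 for Piwil4 and from 4.54 to 5.66 or 7.41 for Tdrd9. Against 24 h they went from 6.92 to 8.09 or 8.59 for Spocd1 and from 5.6 to 6.93 or 7.3 for Tdrd9. The order of the folds among the genes therefore depended on the share, and as these comparisons cross the pools, time and pool cannot be told apart. The pair of XY FGFRi groups, at 24 and 72 h, was made within pool 2, and there too all 6 genes rose (19.2% of all genes higher), Tdrd9 29.5-fold, Spocd1 27.8-fold, Piwil4 22.6-fold, Tex15 13.3-fold, Morc1 10.5-fold and Mael 5.91-fold, with the largest FDR at 7.86e-14. This comparison was chosen after the data were seen. The summed germ cell markers were at 4189 to 5339 CPM in XY 24 h FGFRi and at 1677 to 2443 CPM in XY 72 h FGFRi, and the blood cell markers at 36.8 to 233.5 CPM in XY 0 h, 23.4 to 98.5 CPM in XY 24 h DMSO and 27.3 to 59.05 CPM in XY 72 h DMSO, and their part was not tested.

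MEKi did not hold the genes at their starting level. From 24 to 72 h in MEKi all 6 rose (10.9% of all genes higher), by 31.9-fold for Tdrd9, 16.4-fold for Piwil4, 8.45-fold for Tex15, 4.28-fold for Morc1 and 3.73-fold for Mael. Spocd1 had 0 counts in every XY 24 h MEKi library and was at least 50.7-fold higher at 72 h, counted against a floor of 3 counts over the group. The 72 h MEKi libraries were also above XY 0 h for all 6 genes (15.1% of all genes higher), as deposited from 2.58-fold for Morc1 to 7.97-fold for Tex15. For Spocd1 that last difference was 3.92-fold (FDR 0.000268) and it was not called without XY 0 h replicate 3 (FDR 0.0761), with DESeq2 (FDR 0.265) or with the replicate number as a block (FDR 0.075). With 3% of the index partner taken out of the XY 0 h counts its log2 fold change went from 1.97 to 4.62, above that of Tex15 (3.48), and so did that of Piwil4 (from 2.77 to 4.14) and of Tdrd9 (from 2.53 to 3.66). Both comparisons cross the pools. The blood cell markers were at 170.4 to 421 CPM in XY 24 h MEKi and at 17.6 to 27.8 CPM in XY 72 h MEKi libraries, and their part was not tested.

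In XX germ cells the 6 genes did not move together. Tex15 rose 12.9-fold and Mael 5.68-fold between 0 and 72 h, Morc1 fell 3.28-fold from 32.5 ± 4.41 CPM (SD, n = 4) to 10.2 ± 3.62 CPM (FDR 0.00165), and Piwil4, at 2.8 ± 2.02 and 1.68 ± 1.19 CPM, was not called (FDR 0.503). Tdrd9 rose 8.045-fold, from 3.08 ± 0.74 to 26.6 ± 9.73 CPM (FDR 5.94e-05), still below every XY 72 h library. Spocd1 went from 0 counts in all 4 libraries at 0 h to 16 counts in all at 72 h, at least 8.27-fold higher, and was called (FDR 0.00113). In all, 4 members were called higher (18.8% of all genes) and 1 lower (18.4%), across pools. The summed somatic markers were at 22.6 to 39.2 CPM at 0 h, 17 to 30.8 CPM at 24 h and 89.8 to 130.1 CPM at 72 h in XX libraries, and their part was not tested. With 3% of the index partner taken out of XX 0 h, which amounted to 26.1% of its Tex15 counts, the same 5 members were called and the log2 fold change of Tex15 went from 3.68 to 4.08. Between 24 and 72 h, 2 members rose (10.3% of all genes), Tex15 3.63-fold and Mael 2.01-fold, and 1 fell (11.9% of all genes). This was Piwil4 (log2 fold change -3.77, FDR 1.38e-05), whose call was lost with the estimated index share taken out of the 24 h counts (log2 fold change -1.55, FDR 0.308). With that share taken out Spocd1, not called as deposited (log2 fold change -1.57), was called higher at 72 h (2.86). A test of whether the XY minus XX difference at 72 h exceeded that at 0 h called Piwil4 (log2 difference 5.81, SE 0.723, FDR 3.555e-08) and Morc1 (4.71, SE 0.356, FDR 5.92e-14), where 16% of all genes were called in that direction, and the value for Tex15 was -0.01 (95% interval -0.41 to 0.39). With 3% of the index partner taken out of the 0 h counts, Spocd1 (log2 difference 4.24, FDR 0.00423), Tdrd9 (2.42, FDR 0.03) and Mael (1.11, FDR 0.0258) were called as well.

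At 24 h in XX germ cells 5 members were called higher than at 0 h (2.32% of all genes), but for 3 of them the call depended on counts in proportion to the library with the same index. Spocd1 counts in the XX 24 h libraries were 14, 17, 19 and 29, and 3% of the counts of their XY 72 h FGFRi partners came to 12.2, 16.4, 17 and 26.7, so that this share amounted to 91.5% of the Spocd1 counts. It amounted to 57.4% of the Piwil4 counts, 50.2% of Morc1, 49.7% of Tdrd9, 13.4% of Mael and 11.6% of Tex15. With 3% of the partner's counts taken out, Spocd1 (FDR 0.577), Piwil4 (FDR 0.361) and Tdrd9 (FDR 0.139) were no longer called higher and Morc1 was called lower (log2 fold change -1.47, FDR 0.0308). Tex15 and Mael remained called with 3% and with the estimated share taken out, and all 5 were called without XX 24 h DMSO replicate 6. As deposited, Tex15 rose 3.55-fold (FDR 1.24e-08) and Mael 2.83-fold (FDR 8.46e-06) in XX germ cells within the first 24 h, and their XX 24 h libraries, at 228.8 to 498.5 CPM and at 154.3 to 238.8 CPM, lay above all XX 0 h libraries.

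**Figure D3:**
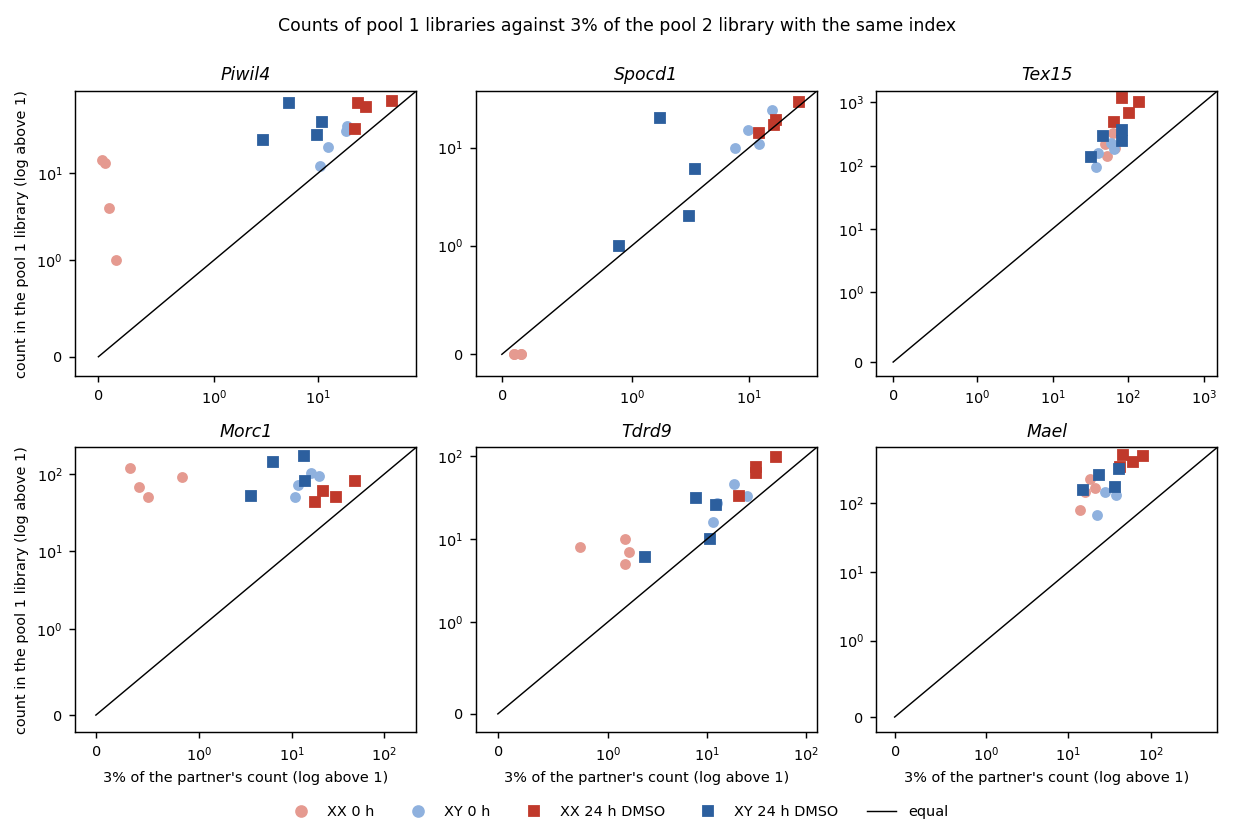
Count of each gene in the pool 1 libraries that share a sample index with a pool 2 library, against 3% of the partner's count, with axes that are linear below 1 and logarithmic above it, and a line where they are equal. Most Spocd1 points lie near the line, whereas Tex15 and Mael points lie above it.

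The index partner also weighed on the XY 0 h levels of the genes that were abundant only later, and less on their XY 24 h DMSO levels. At 24 h, 3% of the partner came to 45.45% of the Tdrd9, 31.5% of the Spocd1, 18.7% of the Piwil4 and 8.49% of the Morc1 counts. At 0 h Spocd1, the 1 member called, was higher in XY than XX (1.34% of all genes higher), with 60 counts in the 4 XY libraries and 0 in the XX ones, at least 23.9-fold, and 3% of the XY 72 h DMSO partners came to 75.5% of those counts. With that share taken out 15 counts remained, and Spocd1 was not called (FDR 0.815). Piwil4 at 10.4 ± 3.56 CPM in XY against 2.8 ± 2.02 in XX and Tdrd9 at 12.8 ± 1.88 against 3.08 ± 0.74 were, like Spocd1, separated between the sexes at 0 h (11.7% of all genes were separated in this direction) without being called (FDR 0.242 and 0.105). The partner share was 62.1% and 55.6% of their XY counts. Once 3% of the partner was taken out, the Piwil4 libraries of the sexes overlapped, at 1.84 to 7.18 CPM in XY and 0.717 to 5.1 CPM in XX, whereas those of Tdrd9 were still separated, at 3.59 to 7.07 and 1.96 to 3.53 CPM. With the estimated share taken out the direction turned for both genes, to a log2 fold change of -1.85 (FDR 0.731) for Piwil4 and -0.51 (FDR 1) for Tdrd9. Tex15 (log2 fold change -0.33), Morc1 (0.01) and Mael (-0.18) overlapped between the sexes at E12.5. XY 0 h libraries held 40.4 to 93.6 CPM of summed somatic markers and 36.8 to 233.5 CPM of blood cell markers. XX 0 h libraries held 22.6 to 39.2 CPM and 24.5 to 39.95 CPM of them, and their part was not tested.

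After 24 h in DMSO none of the 6 genes was called in XY germ cells against 0 h in either direction (2.94% of all genes were), and all 6 overlapped between the groups. limma gave 0 calls, edgeR and DESeq2 gave 0, and 1 gene, Spocd1, had an unadjusted p under 0.05. With the estimated index share taken out of both groups, Piwil4 was called higher at 24 h (log2 fold change 3.32, FDR 0.0094), against 0.40 as deposited and 1.43 (FDR 0.438) with 3% taken out, and the value for Spocd1 went from -1.69 to 0.25. The Tdrd9 means were 7.43 CPM at 24 h and 12.8 CPM at 0 h as deposited. They were 3.75 and 2.12 CPM with the estimated share taken out, without a call. Set against XX at 24 h, Tex15 was 3.24-fold lower in XY (FDR 1.24e-07) and Mael 2.03-fold lower (FDR 0.0221), with 5.99% of all genes called lower. Spocd1 (FDR 0.0396) and Tdrd9 (FDR 0.0155) were also called lower, and neither was when 3% of the index partner was taken out (FDR 1 and 0.0787). The log2 fold change of Spocd1 was then -0.33, while that of Tdrd9 was as large as before, at -2.3 (SE 0.71) against -1.99 (SE 0.441), and Morc1 was called higher (1.67, FDR 0.00205). With the estimated share taken out Spocd1 turned to 0.55. Piwil4 was not called (log2 fold change -0.76), with means of 16.4 CPM in XY and 22.8 CPM in XX. The order of its means turned to 14.2 and 9.31 CPM with 3% taken out. With the estimated share they were 13.4 and 5.67 CPM, and neither setting gave a call. The Mael call was lost without XX 24 h DMSO replicate 6 (FDR 0.092), XY 24 h DMSO replicate 4 (FDR 0.223) or XY 24 h DMSO replicate 5 (FDR 0.0854), and Tex15 was called in each of these. The Tdrd9 call was lost without XY 24 h DMSO replicate 4 (FDR 0.0697), and the Spocd1 call without any 1 of 6 of the 8 libraries (FDR 0.0545 to 0.155). Summed somatic markers were at 32.7 to 110.4 CPM in the XY libraries and at 17 to 30.8 CPM in the XX ones, and their part was not tested.

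At 24 h limma called no member under either inhibitor. Under MEKi all 6 log2 fold changes were below 0, from -2.65 for Spocd1 to -0.25 for Mael, and 0 were called by limma, where 0.111% of all genes were called lower. Of the other tools edgeR called 1, Piwil4, and DESeq2 called 0. At an unadjusted p under 0.05 in limma there were 3, namely Piwil4, Spocd1 and Morc1. The share of all genes at that looser rule was not counted, so the 3 cannot be set against the 0.111%. Piwil4 was at 1.59, 3.29, 4.78 and 6.04 CPM in 24 h MEKi and at 9.28, 10.55, 12.4 and 33.3 CPM in 24 h DMSO, so that the groups did not overlap, as for Spocd1 and Morc1 and for 6.24% of all genes in this direction (log2 fold change -1.66, 95% interval -2.54 to -0.78, FDR 0.909). Morc1 was at 16.4 to 24.3 CPM in MEKi and 27 to 73.45 CPM in DMSO (log2 fold change -1.04, FDR 1). Spocd1 had 0 counts in the 4 MEKi libraries and 1, 2, 6 and 20 in the DMSO ones, the highest in replicate 3. XY 24 h MEKi libraries have no index partner whereas the DMSO libraries share indexes with XY 72 h MEKi libraries, of which 3% came to 45.45% of the Tdrd9, 31.5% of the Spocd1, 23.6% of the Tex15, 18.7% of the Piwil4, 12.9% of the Mael and 8.49% of the Morc1 counts. With that 3% taken out the log2 fold change of Tdrd9 went from -1.39 to -0.07, and with the estimated share to 0.27, while the other 5 stayed below 0. The differences of Tex15 and Mael became smaller. As deposited their means were 101.2 and 89.4 CPM in DMSO against 65.1 and 69 CPM in MEKi. With the estimated share taken out they were 73.2 and 77.85 CPM against 64.75 and 68.6 CPM. The Spocd1 counts left in DMSO with 3% taken out were 0, 0, 3 and 18, so that the groups were no longer separated. Without DMSO replicate 3 the log2 fold change was -1.46 for Piwil4, -2.22 for Spocd1 and -0.91 for Morc1. The blood cell markers summed to between 170.4 and 421 CPM in 24 h MEKi and between 23.4 and 98.5 CPM in 24 h DMSO libraries, and their part in these differences was not tested.

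Under FGFRi at 24 h, which crosses the pools, the log2 fold changes ran from -0.65 for Morc1 to 1.85 for Spocd1. limma, edgeR and DESeq2 gave 0 calls, Spocd1 alone had an unadjusted p under 0.05, all 6 genes overlapped between the groups, and 0.262% of all genes were called in either direction. Tdrd9 was at 24.7 CPM in FGFRi replicate 4 and between 5.7 and 7.91 CPM in the others, and 26 of the 42 Spocd1 counts of the group were in the same library. Without it the log2 fold change was 0.22 for Tdrd9 and 1.31 for Spocd1. After 3% or the estimated share of the index partner was taken out of the DMSO counts the value went from 0.76 to 2.08 or 2.43 for Tdrd9 and from 1.85 to 3.02 or 3.51 for Spocd1, neither of them called. Whether the MEKi difference at 72 h was larger than that at 24 h was tested for each gene, and none was called by limma, edgeR or DESeq2 (0 at an unadjusted p under 0.05, 1.89% of all genes called). The differences ran from -0.82 (95% interval -1.2 to -0.44) for Mael to -0.13 for Tex15, with wide intervals for the genes that were scarce at 24 h, such as -2.35 to 1.15 for Spocd1. None was called with 3% of the index partner taken out either, and the difference for Tdrd9 went from -0.61 to -1.93.

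Ordered by the group means of the deposited counts, Piwil4, Morc1 and Tdrd9 were highest in XY 72 h FGFRi and DMSO, which overlapped, followed by XY 72 h MEKi, and Spocd1 had the same groups on top with DMSO ahead of FGFRi. Each of the 4 dropped without overlap from the DMSO and FGFRi pair to MEKi. From MEKi to the fourth group the step was without overlap for Piwil4 and with overlap for Morc1 and Tdrd9. For Spocd1 the fourth group, XX 24 h DMSO, lay below MEKi, but XY 24 h FGFRi, lower in mean, reached 14.92 CPM, level with the lowest MEKi library at 14.89 CPM, and it became the fourth group with 3% of the index partner taken out. With 3% of the index partner taken out, the XX 24 h libraries reached 26.05 CPM for Tdrd9 and no longer overlapped the MEKi ones, of which the lowest was at 38.4 CPM. The lowest group was XX 72 h DMSO for Piwil4 and Morc1 and XY 24 h MEKi for Tdrd9, Tex15 and, with XX 0 h, Spocd1, and XY 0 h for Mael. With 3% of the partner taken out the lowest group for Tex15 was XY 0 h, at 50.2 CPM against 64.75 CPM in XY 24 h MEKi, and with the estimated share taken out it was XX 24 h DMSO for Morc1 and XY 0 h for Piwil4 and Tdrd9. Tex15 was highest in XX 72 h DMSO, which overlapped XY 72 h FGFRi but not XY 72 h DMSO, and Mael in XY 72 h DMSO with XX 72 h DMSO in the third place.

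Across the 10 group means of log2(CPM + 1), the members fell nearest to each other as Spocd1 with Tdrd9 (Pearson r 0.966), Tex15 with Mael (0.961) and Piwil4 with Spocd1 (0.947), and were farthest apart for Tex15 with Morc1 (0.445). The points share libraries and pools, and no test was made. The means were those of the deposited counts, with no share of the index partner taken out. Among all other genes of at least 10 CPM in some group, the closest to Spocd1 was Dnmt3l (r 0.99), the cofactor of de novo DNA methylation, and the closest to Mael was Mov10l1 (r 0.992), the helicase that starts piRNA processing. Tcf25 (r 0.983) and Gm15389 (r 0.98) followed for Spocd1, and Rnf216 (r 0.99) and Hpse2 (r 0.985) for Mael. Piwil4 was closest to Fam217b (r 0.992), with Cyb561d2 in the third place (r 0.99), and Morc1 to Crlf3 (r 0.994), Zfp948 (r 0.99) and Gm6192 (r 0.99). Tdrd9 was closest to Sag (r 0.984), with Henmt1, the piRNA methyltransferase, in the second place (r 0.979) and Tmc2 in the third (r 0.978). Tex15 was closest to ENSMUSG00000040838, which had no symbol in the annotation used (r 0.99), followed by Mroh1 and Akap13 (r 0.989 for both). Dnmt3l was at 9.42 CPM in XX 24 h DMSO and at 154.8 CPM in the index partners, XY 72 h FGFRi. In XY 0 h it was at 3.79 CPM, and in the index partners, XY 72 h DMSO, at 137.8 CPM. Spocd1 was at 8.465 and 170 CPM and at 7.04 and 196.6 CPM in the same groups. The part of the shared index in these correlations, Spocd1 with Tdrd9 and Tdrd9 with Henmt1 included, was not tested.

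Other genes of the pathway were counted from lists that were drawn up with earlier results of these data known. Of 20 listed genes of piRNA biogenesis and the cytoplasmic granules, 19 were tested. MEKi at 72 h lowered 5 of the 19 and raised 0, where 5.11% of all genes were lower and 4.01% higher, with a median log2 fold change of -0.57 (all genes 0.006). They were Piwil1 (log2 fold change -1.9, FDR 4.6e-07) and Henmt1 (-1.85, FDR 0.000174), Tdrd1 (-1.25, FDR 7.79e-06), which binds PIWI proteins, Gtsf1 (-1.07, FDR 0.0133), a PIWI cofactor, and Tdrd5 (-0.96, FDR 0.00655). In XY against XX at 72 h, 12 of the 19 were higher (22.8% of all genes), led by Piwil1 (log2 fold change 3.7), Tdrd1 (3.13) and the piRNA trimmer Pnldc1 (2.99), and 1 was lower (18.1% of all genes), Mybl1 (-1.91), a transcription factor of the piRNA clusters of meiotic cells. Under FGFRi at 72 h, 0 of the 19 were called by limma.

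Of 14 listed silencing effectors, enzymes and cofactors of DNA and histone methylation, 13 were tested. MEKi at 72 h lowered 2 of them (5.11% of all genes), Dnmt3l (log2 fold change -3.17, FDR 4.385e-15), from 137.8 ± 29 to 13.4 ± 6.09 CPM (SD, n = 4), and the de novo DNA methyltransferase Dnmt3a (-1.21, FDR 1.98e-07), from 535.7 ± 26.8 to 228.1 ± 13.4 CPM. It raised 1 (4.01% of all genes), Uhrf1 (1.44, FDR 2.19e-06), which recruits maintenance methylation to replicating DNA, from 70.7 ± 13.5 to 196.6 ± 23.6 CPM, and the list's median was 0.33 (all genes 0.006). In XY against XX at 72 h 5 of the 13 were higher (22.8% of all genes), led by Dnmt3l (5.04), Dnmt3a (2.91) and the histone methyltransferase gene Ehmt2 (2.31), and 3 were lower (18.1% of all genes), Hells (-1.71), Setdb1 (-1.5) and Morc2a (-1.27), with a median of 0.13 where all genes had 0.1. FGFRi at 72 h gave 0 calls among the 13. Tdrd6 and Dnmt3c, also on the lists, did not pass the filter on low counts.

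**Figure D4:**
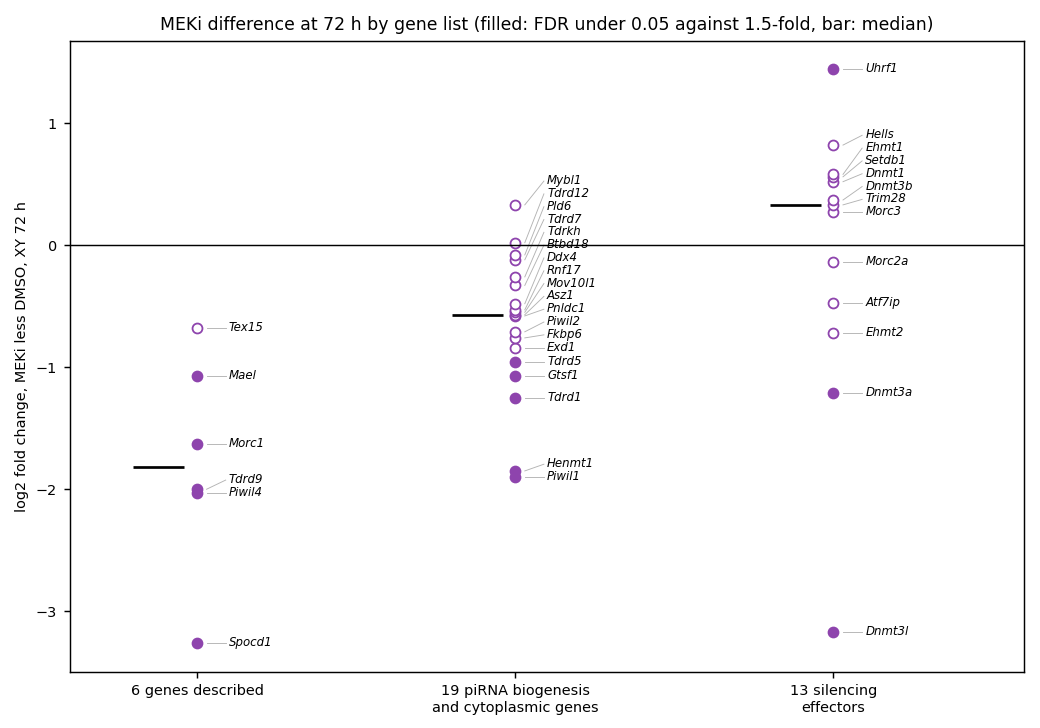
Log2 fold change of XY 72 h MEKi against DMSO for the 6 genes, for 19 genes of piRNA biogenesis and cytoplasmic granules and for 13 silencing effectors. Each point is a gene, filled where it passed an FDR of 0.05 against a 1.5-fold change, and bars are the medians of -1.82, -0.57 and 0.33.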

How the data were processed

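RNA was measured in 40 libraries of sorted germ cells, 4 in each of 10 groups, and groups follow the library names in the labels. The authors deposited whole-number counts per gene. In their methods a sample index and a unique molecular identifier were added at the poly(A) tail, scPipe split the reads by index, Rsubread mapped them to GRCm39, and reads over exons were counted once per identifier. The aligner version and annotation release are not given in the sources used here, and the submitters' processing notes also name edgeR and limma. Identifiers were matched to GENCODE M39, which named 40391 of 42422 genes. Every column was used.

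Genes were kept with filterByExpr of edgeR 4.0.16 (a count of at least 10 and a total of at least 15), leaving 15252 genes that hold 99.2% of all counts. As in the study's methods, voomWithQualityWeights and treat of limma 3.58.1 (R 4.3.3) were run against a 1.5-fold change, in a fit of all libraries with a mean for each group and Benjamini-Hochberg adjustment (FDR under 0.05). This is the main test because the study used it. Alternatives were edgeR's glmTreat, DESeq2 1.42.0, eBayes, no quality weights, no filter, DESeq2 size factors, the compared groups alone, a replicate block, removal of 3% or of an estimated share of the index partner's counts, and leaving out each library. The procedure was tested on simulated data. Depth and 4 libraries a group limit the precision. Where a group had 0 counts, 3 counts over the group gave a bound that covers counting error only. Labels do not say whether libraries of a group were separate cultures, so p-values measure the spread between these libraries. The members and lists were chosen with earlier results of these data known. The genes named are the 6 members, the called list genes with the largest changes (at most 5 a comparison and list) and the 3 genes most like each member, of which 1 is not reported here. Dnmt1 and Hells under MEKi, which were not called, were added after their values were seen. The authors' own comparisons were not used.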

Additional observations from a re-analysis of the deposited data

Results flagged for a closer look

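In 60 groups of 4 libraries (6 genes in 10 groups), 7 held a library far from the other 3, where chance gives about 1 in 20. In XY 24 h DMSO, replicate 3 was far above the others for Piwil4 (33.3 CPM) and Spocd1 (10.4 CPM). In XX 24 h DMSO, replicate 6 was far above them for Morc1 (40.1 CPM) and Mael (238.8 CPM). Tdrd9 stood at 24.7 CPM in XY 24 h FGFRi replicate 4, a library with no index partner. Mael was far below the others in XY 0 h replicate 3 (44.6 CPM) and in XY 24 h FGFRi replicate 3 (69.25 CPM). None of the 7 was in a 72 h group.

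The difference between XY and XX germ cells changed between 0 and 72 h for Piwil4 (log2 difference 5.81, FDR 3.555e-08) and Morc1 (4.71, FDR 5.92e-14) by limma's treat test of the difference itself. Morc1 overlapped between the sexes at 0 h (log2 fold change 0.01) and was higher in all 4 XY than in all 4 XX libraries at 72 h.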

How the results depend on the processing

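Of the calls at 72 h, the 5 members lower under MEKi and the 4 higher in XY than XX were called with limma, edgeR and DESeq2 and without any 1 library, and FGFRi at 72 h gave 0 under each alternative. With eBayes there were 6 and 5 (Tex15 and Mael were added), 6 for MEKi against FGFRi at 72 h and 6 for XY against XX at 24 h (Piwil4 and Morc1 added). Other counts of members called changed as follows. For XY against XX at 0 h (1 called) there were 3 with edgeR and with eBayes and 0 with 3% or the estimated share of the index partner taken out. Tdrd9 was also called there in the fit of the compared groups alone. With eBayes there were 2 for XY 24 h DMSO against 0 h and 2 for MEKi at 24 h (edgeR 1), 1 for the change in the MEKi effect from 24 to 72 h, 4 for XY minus XX at 72 h less that at 0 h, and 5 (edgeR 5) for XX 72 h against 24 h. Taking out the index share gave 3 and 3 for XX 24 h against 0 h, 5 and 5 for XY minus XX at 72 h less that at 0 h, and, with the estimated share, 1 for XY 24 h against 0 h, Piwil4. XY against XX at 24 h (4 called) fell to 1 without the filter and 2 with DESeq2, and Spocd1 there turned to a log2 fold change of 0.55 with the estimated share taken out. With that share out Spocd1 also turned to 2.86 for XX 72 h against 24 h, where it was then called higher. By construction these removals lower the pool 1 counts, and the cause of the other changes was not tested.

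Leaving out 1 library gave 1 to 4 calls for XY against XX at 24 h, 5 to 6 for XY 72 h MEKi against XY 0 h and the main count in all other comparisons. Replicate numbers did not pair the libraries (correlations of same-numbered libraries between -0.123 and 0.15), and with the replicate number as a block there was 1 call for XY against XX at 24 h, 1 for XX 72 h against 24 h, 3 for XX 72 h against 0 h, 3 for MEKi against FGFRi at 72 h, 2 for XY 72 h MEKi against XX 72 h and 5 for XY 72 h MEKi against XY 0 h, without Spocd1. For MEKi against DMSO at 72 h Tdrd9 was then not called (FDR 0.108). Over all settings, single members gained a call in the same direction 33 times and lost it 34 times, beside the 2 turns of Spocd1, and lost it 11 more times without 1 library. Genes with few counts a library at 0 and 24 h had wide intervals, such as -4.37 to -0.93 for Spocd1 under MEKi at 24 h. Smaller differences could be missed there, and the size that could be detected was not worked out.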

Other observations

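In XX germ cells some other genes of the pathway were called within the first 24 h of culture. Of 19 tested genes of piRNA biogenesis and granules, 4 rose between XX 0 h and 24 h DMSO by limma's treat test (2.32% of all genes) and 0 fell, with a median log2 fold change of 0.66 where all genes had 0.045. They were Tdrd1 (log2 fold change 2.5, FDR 9.56e-07), Gtsf1 (2.17, FDR 0.0126), Btbd18 (1.55, FDR 0.00602), a regulator of piRNA precursor transcription in meiotic cells, and Mov10l1 (1.08, FDR 0.00246). XX 24 h libraries share indexes with XY 72 h FGFRi libraries, in which Tdrd1 was at 305.4 CPM and Gtsf1 at 259.9 CPM on average, against 48.95 and 31 CPM in XX 24 h DMSO, and the part of the shared index in these list genes was not tested. Btbd18 was at 56.7 CPM in those partners and at 33.3 CPM in XX 24 h DMSO.

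Among genes of DNA methylation maintenance, a pair not called under MEKi at 72 h was chosen after the values were seen. Dnmt1, the maintenance methyltransferase, was at 180.2 ± 11.5 CPM in XY 72 h DMSO and 259.6 ± 17.4 CPM in MEKi (SD, n = 4), a log2 fold change of 0.52 (FDR 1), and Hells, a chromatin remodeller, was at 565.9 ± 55 and 1074 ± 293.6 CPM, a log2 fold change of 0.82 (FDR 0.18).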
